A study of Mus musculus with 8 samples.

Results

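The lysosomal genes described here are the V-ATPase subunits and their accessory proteins, the cathepsins, the LAMP membrane proteins and the Ragulator subunits. They were taken by name from the protein-coding genes of the table, as every gene whose symbol begins with Atp6v0, Atp6v1, Atp6ap, Lamp or Lamtor with its number, or is Cts followed by 1 letter. The rule found 52 of 21980 protein-coding genes, out of 53710 gene IDs in all. RNA-seq was made from pineal glands, and each library was a pool of the glands of 5 to 7 male mice aged 5 months, killed 0.5 h after lights on. The 4 5xFAD libraries (5xFAD-1 to 5xFAD-3 and 5xFAD-21) came from mice that carry human transgenes with familial Alzheimer's disease mutations under the Thy1 promoter, which is active in neurons. The 4 wild type libraries (WT-11 and WT-21 to WT-23) came from C57BL/6 mice of another supplier, so supplier and genotype cannot be told apart. Values of single libraries are given in the order of these numbers within each group. The labels do not say how pools relate to litters or days, and p-values measure the spread between pools.

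The lysosome digests material that reaches it by endocytosis and autophagy. Its hydrolases work at acid pH, which the V-ATPase sets up by pumping protons with the energy of ATP. The V1 sector of this pump lies in the cytosol and splits ATP, while the V0 sector lies in the membrane and carries the protons. Cathepsins are the proteases of the lumen, and LAMP proteins line the inner face of the membrane. The Ragulator complex holds the Rag GTPases on the outer face, to which they recruit mTORC1 when amino acids are present. In secretory cells the V-ATPase also acidifies secretory vesicles and Golgi compartments. Many lysosomal genes of mammals are induced by the transcription factor TFEB and its relatives, which bind the CLEAR element, a sequence around the letters CACGTG. The handling of Aβ has made the lysosome a subject of Alzheimer's disease research.

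The letters CACGTG stood in the promoter window of 11 of the 28 lysosomal genes that passed the expression filter described below and had a window (39.3%). Over all genes that passed that filter they stood in 1148 of 9822 (11.7%), and over all genes with a RefSeq window in 8.09%. The windows are 300 bases long, 250 before and 50 after the RefSeq start site on GRCm38.p6, and both strands were searched, on which CACGTG reads the same. The 8 letters TCACGTGA, which contain CACGTG and also read the same on both strands, stood in 5 of the 28 genes (17.9%). They stood in 2.15% of all genes that passed the filter and in 1.12% of all genes with a window. These 5 genes were Atp6v1a, Atp6v0d1, Atp6v0e, Ctsa and Ctsd. Lamp1 held 4 copies of CACGTG, a number reached by 4 of the 9822 genes (0.0407%), and Atp6v0b, Ctsa, Ctsd and Lamtor4 held 2 each. Such matches are letters in a window and were not tested for binding. The following stretches are shown for the genes with TCACGTGA or with several copies close together, 5′ to 3′ on the strand of the gene, with the CACGTG letters in capitals.
Lamp1, chr8:13159080-13159171, plus strand: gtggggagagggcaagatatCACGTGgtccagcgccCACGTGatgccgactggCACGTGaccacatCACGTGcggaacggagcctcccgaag
Ctsa, chr2:164833741-164833803, plus strand: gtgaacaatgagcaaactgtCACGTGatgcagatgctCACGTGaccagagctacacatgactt
Ctsd, chr7:142387898-142387947, minus strand: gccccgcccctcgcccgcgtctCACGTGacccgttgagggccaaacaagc
Atp6v0b, chr4:117887322-117887385, minus strand: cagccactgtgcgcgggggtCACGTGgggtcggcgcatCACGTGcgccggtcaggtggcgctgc
Atp6v0d1, chr8:105566042-105566087, minus strand: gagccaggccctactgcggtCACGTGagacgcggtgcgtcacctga
Atp6v0e, chr17:26676379-26676424, plus strand: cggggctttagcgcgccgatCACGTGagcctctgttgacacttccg
Atp6v1a, chr16:44139365-44139410, minus strand: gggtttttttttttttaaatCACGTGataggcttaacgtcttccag
Lamtor4, chr5:138255342-138255403, plus strand: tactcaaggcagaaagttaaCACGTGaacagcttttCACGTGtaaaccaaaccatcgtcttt

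The deposited values are FPKM, fragment numbers scaled to the length of the transcript and the size of the library, so levels can be set side by side between genes. At the depth of these libraries 1 fragment on a transcript of 1 kb was worth 0.0574 to 0.0813 FPKM in the 5xFAD libraries and 0.0748 to 0.0939 FPKM in the wild type libraries. WT-22 stood apart from its group. It had 13.3 FPKM of Xist, the RNA of the inactive X of female cells, where the other 7 libraries had 0.0048 to 0.0404 FPKM, although it also had 32.0 FPKM of the Y-linked gene Ddx3y. Along the main axis of a principal component analysis (38% of the variance), WT-22 was at −41.7 and 5xFAD-21 beside it at −39.6, while the other wild type libraries took 13.2 to 51.1. Both libraries were also lowest in genes of bone and bone marrow. Tph1, the tryptophan hydroxylase of the pinealocyte, stood at 737 to 1900 FPKM in 5xFAD and 613 to 1236 FPKM in wild type, so both groups carried pineal transcripts. 5xFAD-1 stood apart in the choroid plexus genes Folr1, Clic6, Kl and Kcnj13. It had 13.6 FPKM of Folr1, where the other 5xFAD libraries had 122 to 213 FPKM. WT-22 was lowest of the wild type libraries in Folr1, with 87.0 FPKM against 147 to 163 FPKM. Otx2 of the same list did not follow Folr1 in either group. It was not low in 5xFAD-1 (164 FPKM, against 132 to 181 FPKM in the other 5xFAD libraries). In wild type it was highest in WT-22 (184 FPKM, against 97.5 to 132 FPKM). Ttr, the most abundant gene of the list, was listed at 0 in all 4 5xFAD libraries. In wild type Ttr had 9440 to 19630 FPKM, and the cause was not tested. Counts of the lysosomal genes are given with and without WT-22.

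The 37 lysosomal genes with a mean of at least 1 FPKM were abundant, with a median of 76.4 FPKM against 10.4 FPKM over all 13094 protein-coding genes with that mean. The other 15 lay under the filter and are described further on. Ctsd, the aspartic protease cathepsin D, led with 394 FPKM and stood at percentile 99.4 of the genes tested. Atp6v0c, which encodes the proteolipid of the V0 rotor ring, followed with 216 FPKM. By role, the medians were 105 FPKM for 9 V1 genes, 104 FPKM for 7 V0 genes, 144 FPKM for both accessory genes, 148 FPKM for Lamp1 and Lamp2, 47.3 FPKM for 12 cathepsins and 44.6 FPKM for 5 Ragulator genes. The cathepsins spanned the widest range, with means of 1.70 to 394 FPKM.

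**Figure D1:**
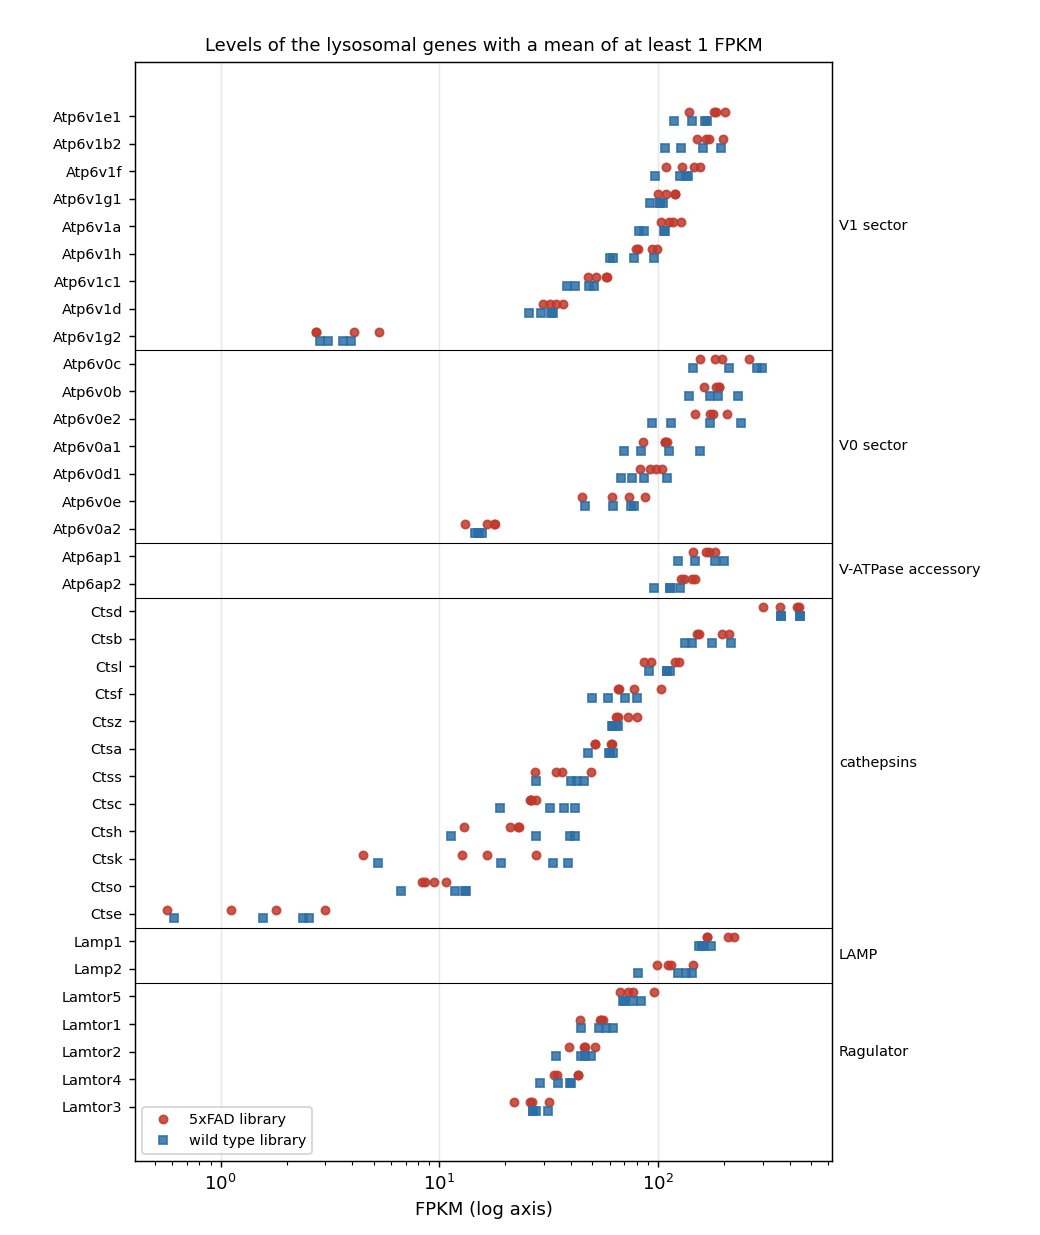
FPKM of the 37 lysosomal genes with a mean of at least 1 FPKM (log axis), by role, with 1 point per library (red circles 5xFAD, blue squares wild type). Means run from 1.70 to 394 FPKM and both groups overlap for 36 genes, while Ctsk, Ctse and Ctsh spread most between libraries.

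The 5xFAD group was compared to the wild type group to see whether the genes of lysosomal acidification and proteolysis differ in the pineal gland of this model. On log2(FPKM + 0.1) and with limma, 1 of the 37 genes was higher in 5xFAD at an unadjusted p under 0.05, against 4.6% of all genes tested, and 0 were lower, against 3.35%. At an adjusted p under 0.05 over all genes 0 of the 37 passed, against 0.0382% of all genes. The 5xFAD libraries lay above all wild type libraries for 1 gene, Atp6ap2 (2.11% over all genes), and below them for 0 (2.23%). Of the 37 log2 fold changes 24 lay above 0, against 48.7% over all genes, and their median was 0.07, where that of all genes was −0.01. The count of 1 rested on single libraries. It was 6 without WT-22, 4 without 5xFAD-3 and 0 without 5xFAD-2, 5xFAD-21 or WT-21. Without WT-23 it was 1, with Atp6v1a in place of Atp6ap2. Without WT-11 it was 1 higher and 0 lower, against 3.25% and 3.08% of all genes, with 0 past an adjusted p, against 0.0384%.

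Without WT-22 the background changed as well, to 9.61% of all genes higher and 8.47% lower at an unadjusted p under 0.05. The 6 lysosomal genes that were higher were Atp6v1a, Atp6v1b2, Atp6v1c1, Atp6v1h, Atp6v0e2 and Atp6ap2. All are genes of the proton pump, to which 18 of the 37 tested genes belong. The 3 of 37 that were lower, a share near that of all genes, were Ctsc, Ctsh and Ctso. They are cysteine cathepsins, as are most of the 12 cathepsins tested. The smallest adjusted p of these 9 genes was that of Ctsc, 0.119, so 0 passed, against 0.7% of all genes. With 5xFAD-21 left out too, an alternative chosen after seeing the data, 3 genes were higher (Atp6v1c1, Atp6v1h and Atp6ap2) and the same 3 cathepsins were lower, against 8.12% and 7.41% of all genes, and 0 passed the adjusted p, against 0.22%.

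**Figure D2:**
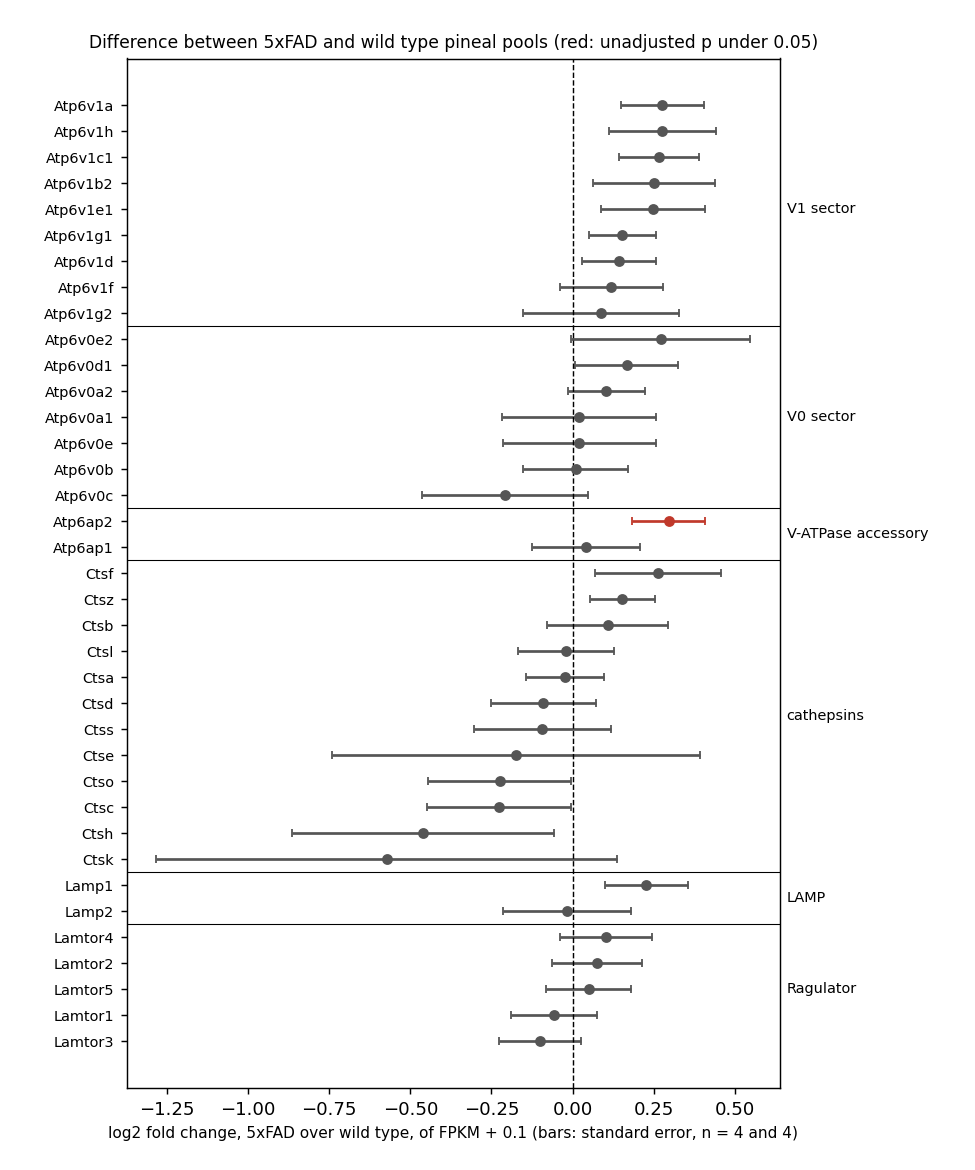
Log2 fold change of 5xFAD over wild type on FPKM + 0.1 for the 37 genes, by role, with the standard error as bars (n = 4 libraries each). Red marks an unadjusted p under 0.05 (Atp6ap2 alone), the 9 V1 genes lie right of 0 and 9 of 12 cathepsins lie left of it.

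The V1 sector had 9 of 9 tested genes above 0, against 48.7% over all genes, with a median log2 fold change of 0.25 and a range of 0.09 to 0.28. These genes varied together over the 8 libraries, with a median correlation of 0.80 over 36 pairs, so they are not separate observations. None had an unadjusted p under 0.05. Atp6v1a encodes the catalytic A subunit, which splits ATP. It had 112, 127, 103 and 117 FPKM in 5xFAD-1 to 5xFAD-3 and 5xFAD-21, against 81.9, 85.8, 107 and 106 FPKM in WT-11 and WT-21 to WT-23, a log2 fold change of 0.28 with a standard error of 0.13 (limma adjusted p = 0.629). WT-11 and WT-21 lay below all 5xFAD libraries, and WT-22 and WT-23 fell within their range. Atp6v1c1, whose product joins the stalk to the a subunit of V0, had 57.8, 58.1, 47.6 and 51.8 FPKM in 5xFAD in that order, against 41.6, 38.5, 51.0 and 48.5 FPKM in wild type, a log2 fold change of 0.27 with a standard error of 0.12 (adjusted p = 0.629). Its 2 lowest values were again those of WT-11 and WT-21.

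Atp6v1h, a regulatory subunit of V1, had 98.8, 93.9, 79.6 and 81.3 FPKM in 5xFAD, against 61.9, 60.4, 96.2 and 77.6 FPKM in wild type (log2 fold change 0.28, standard error 0.16, limma adjusted p = 0.69). Atp6v1e1, of the peripheral stalk, was the most abundant V1 gene with 201, 179.8, 139 and 183 FPKM in 5xFAD, against 118, 143, 163 and 168 FPKM in wild type (log2 fold change 0.25, adjusted p = 0.703). Atp6v1b2 encodes the nucleotide-binding B subunit of brain and other tissues and had 199, 166, 151 and 170.3 FPKM in 5xFAD, against 108, 127, 193 and 160.4 FPKM in wild type (log2 fold change 0.25, adjusted p = 0.741). In each of the 3 genes WT-11 lay below every 5xFAD library and WT-22 within their range. Atp6v1f and Atp6v1d, of the rotor, averaged 135 ± 20.8 and 33.1 ± 2.97 FPKM in 5xFAD against 124 ± 18.5 and 30.0 ± 3.27 FPKM in wild type (SD, n = 4 each). Atp6v1g1, also of the peripheral stalk, averaged 112 ± 9.72 FPKM in 5xFAD and 100.3 ± 5.72 FPKM in wild type (SD, n = 4 each). The log2 fold changes of Atp6v1f, Atp6v1d and Atp6v1g1 were 0.12, 0.14 and 0.15 (adjusted p = 0.839, adjusted p = 0.749 and adjusted p = 0.711).

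The signs of the V1 genes held under most ways of processing, but not every way could change a sign. The filters, the replicate block and the fit without trend leave the fold change of a gene as it is. Under 22 other settings, these among them, 7 of the 9 kept their sign in all, and the median of the sector ranged from 0.11 to 0.31. The exceptions were Atp6v1f, whose lowest log2 fold change was −0.01, and Atp6v1g2, whose lowest was −0.10. In libraries whose labels are numbered in the twenties (5xFAD-21 against WT-21, WT-22 and WT-23) the log2 difference of the V1 genes was 0.08 to 0.24, with the exception of Atp6v1g2 at −0.36. In the other libraries (5xFAD-1 to 5xFAD-3 against WT-11) it was 0.24 to 0.66. Each of these sets has 1 library in a group, and the labels do not say whether the number marks a batch. With a term for the number, 2 lysosomal genes, Atp6v1a and Atp6v1d, were higher at an unadjusted p under 0.05 in limma and 0 were lower, against 5.32% and 6.98% of all genes, and 0 passed the adjusted p, against 0.0305%.

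The V0 sector had 6 of 7 tested genes above 0 but a median log2 fold change of 0.02, and the group means lay close together for most subunits. Atp6v0c had 259, 197, 182 and 155 FPKM in 5xFAD-1 to 5xFAD-3 and 5xFAD-21, against 144, 211, 299 and 284 FPKM in WT-11 and WT-21 to WT-23 (log2 fold change −0.21, standard error 0.26, limma adjusted p = 0.823). The groups overlapped fully, and the lowest and the highest value were both in wild type. A processed pseudogene, Atp6v0c-ps1, averaged 0.425 FPKM in the authors' mean over all libraries. Atp6v0b, a second proteolipid of the ring, averaged 181 ± 13.7 FPKM in 5xFAD and 183 ± 38.9 FPKM in wild type (SD, n = 4 each). Atp6v0d1, which links the ring to the central stalk, averaged 94.2 ± 9.49 FPKM in 5xFAD and 84.9 ± 18.1 FPKM in wild type, with a log2 fold change of 0.17. In these 2 genes the wild type spread was larger than the 5xFAD spread and WT-22 was highest.

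The small e subunit has a pair of genes, and they followed different libraries. Atp6v0e2, the isoform known from brain, had 207, 173, 148 and 179 FPKM in 5xFAD, against 94.1, 115, 239 and 172 FPKM in wild type (log2 fold change 0.27, standard error 0.28, limma adjusted p = 0.798). Atp6v0e had 44.7, 87.4, 61.7 and 73.4 FPKM in 5xFAD, against 62.1, 77.3, 46.2 and 75.5 FPKM in wild type (log2 fold change 0.02, adjusted p = 0.984). 5xFAD-1 and WT-22, which had the lowest Atp6v0e, were the 2 highest in Atp6v0e2. They were also the 2 lowest in Folr1 of the choroid plexus, and the part of that tissue was not tested. The ratio of Atp6v0e2 to Atp6v0e was thus 4.62, 1.98, 2.39 and 2.44 in 5xFAD, against 1.51, 1.49, 5.18 and 2.28 in wild type. The a subunit spans the membrane and steers the pump to its compartment. Its neuronal form Atp6v0a1 had 107, 84.9, 108 and 109 FPKM in 5xFAD, against 69.7, 83.6, 156 and 112 FPKM in wild type, while the Golgi form Atp6v0a2 had 13.1 to 18 FPKM in 5xFAD and 14.5 to 15.6 FPKM in wild type. Their log2 fold changes were 0.02 and 0.10.

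Most paralogs known from kidney, testis or osteoclasts were near 0 in the gland. Atp6v1b1, the kidney and inner ear form of the B subunit, had 0.0881 FPKM in 5xFAD-3 and was listed at 0 in the other 7 libraries, where Atp6v1b2 had 108 to 199 FPKM. Atp6v1e2, the testis form of the E subunit, was listed at 0 except for 0.0643 FPKM in 5xFAD-3 and 0.0894 FPKM in 5xFAD-21, and Atp6v1g3 except for 0.0397 FPKM in WT-21. Atp6v1c2 had 0.0467 to 0.392 FPKM in 5xFAD and 0 to 0.123 FPKM in wild type, and Atp6v0a4, the kidney form of the a subunit, averaged 0.234 FPKM over all libraries. At these levels few fragments per kb were counted. Atp6v1g2, the neuronal form of the G subunit, was an exception with 2.73, 4.08, 5.30 and 2.72 FPKM in 5xFAD, against 2.85, 3.61, 3.10 and 3.93 FPKM in wild type, and Atp6v1g1 stood 18.8 to 43.9 times higher in 5xFAD libraries and 25.9 to 34.0 times higher in wild type libraries. Atp6v0d2, the d subunit of osteoclasts and kidney, had 1.03, 0.459, 0.113 and 0.0624 FPKM in 5xFAD, against 0.928, 0.373, 0 and 0.0715 FPKM in wild type. It was lowest in 5xFAD-21, WT-22 and WT-23. Of 9 osteoclast markers 5 passed the filter, and all 9 summed to 27.3, 26.0, 17.1 and 10.1 FPKM in 5xFAD and 29.1, 17.4, 6.64 and 12.9 FPKM in wild type. Within the list the genes differed: Acp5, the osteoclast phosphatase, had 13.6, 14.6, 4.83 and 1.11 FPKM in 5xFAD and 9.35, 4.62, 1.39 and 3.16 FPKM in wild type, while Nfatc1, which other cells also express, had 3.33, 4.15, 4.19 and 4.86 FPKM in 5xFAD and 6.27, 4.83, 3.13 and 3.97 FPKM in wild type. The part of such cells in Atp6v0d2 was not tested.

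**Figure D3:**
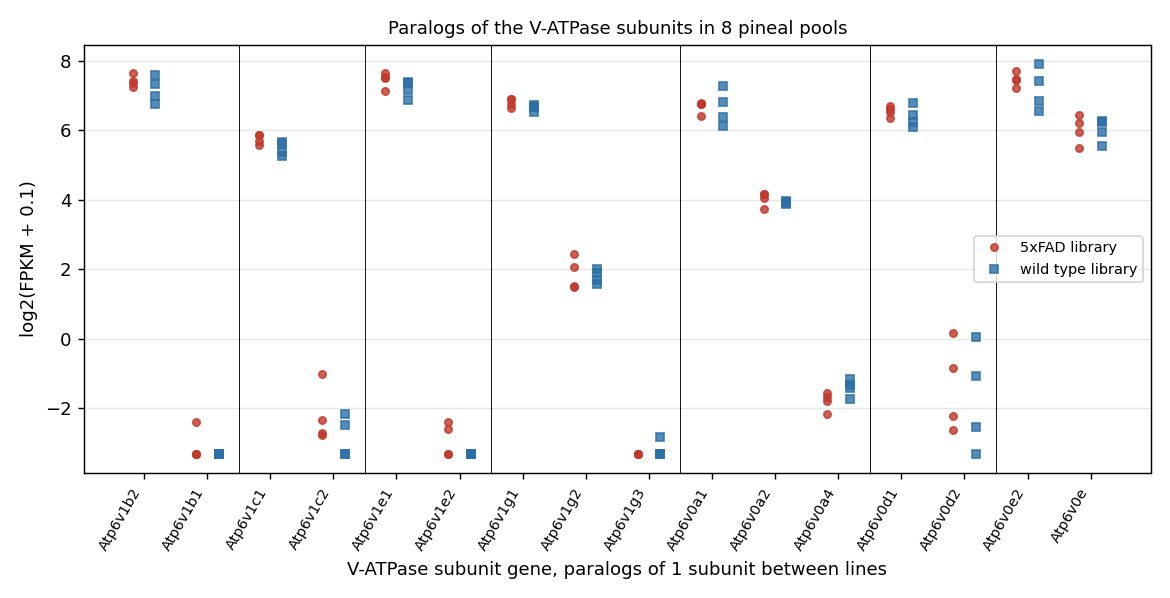
Levels of V-ATPase subunit genes as log2(FPKM + 0.1), with the paralogs of 1 subunit between vertical lines and 1 point per library (red circles 5xFAD, blue squares wild type). For all 7 subunits 1 gene is above its paralogs in all libraries. The gap is smallest for the e subunit, where Atp6v0e2 stands 1.49 to 5.18 times above Atp6v0e. Points at the floor of the axis are values of 0.

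The accessory proteins hold the assembled pump together. Atp6ap2 encodes the prorenin receptor, a membrane protein needed for assembly of the V-ATPase, and lies on chromosome X of GRCm38 from 12587801 to 12617049. It had 131, 147, 127 and 142 FPKM in 5xFAD-1 to 5xFAD-3 and 5xFAD-21, against 113, 96.2, 125 and 113 FPKM in WT-11 and WT-21 to WT-23. All 5xFAD libraries lay above all wild type libraries, 5xFAD-3 only just above WT-22. The log2 fold change was 0.30 (standard error 0.11, p = 0.0282, limma adjusted p = 0.598), and the exact two-sided permutation p was 0.0286, the smallest that the 70 splits of 4 against 4 can give. The unadjusted limma p for Atp6ap2 was over 0.05 with quantile normalization, with the replicate number as a block, with a term for the sample number, and without 5xFAD-2, 5xFAD-21, WT-21 or WT-23. Its log2 difference was 0.36 in libraries numbered in the twenties and 0.25 in the others. Atp6ap1, the partner subunit Ac45, was more abundant and had 182, 165, 145 and 170.0 FPKM in 5xFAD, against 123, 148, 199 and 183 FPKM in wild type, a log2 fold change of 0.04 (adjusted p = 0.953). Its groups overlapped, with the lowest and the highest value both in wild type. Atp6ap1l, a gene like Atp6ap1, averaged 0.327 FPKM over all libraries.

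The genes of the pump shared their lowest library. Of the 18 tested genes of V1, V0 and the accessory proteins, 12 were lowest in WT-11 and 3 in WT-21, where 22.6% and 12.6% of all genes tested had their lowest value. WT-22 held the highest value of 6 of them, 5 being V0 genes, and none of the V1 genes was highest in a wild type library. The mean deviation of the 9 V1 genes from their own log2 means was 0.16, 0.16, −0.01 and 0.09 in 5xFAD, against −0.34, −0.18, 0.07 and 0.04 in wild type, in the order of libraries used above. For the 7 V0 genes it was 0.04, 0.08, −0.07 and 0.06 in 5xFAD, against −0.38, −0.12, 0.26 and 0.13 in wild type. Both sectors had WT-11 lowest and differed in WT-22, where V0 was highest of all. Without WT-11 the median log2 fold change of V1 was 0.11, with 9 of 9 genes above 0, and 4 of 7 V0 genes lay above 0.

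The markers of pinealocytes moved with most genes of the pump, and not with the pump alone. Their 10 genes, among them Tph1, had a mean log2 deviation of 0.47, 0.31, −0.04 and −0.08 in 5xFAD, against −0.37, −0.34, 0.24 and −0.18 in wild type, with WT-11 and WT-21 lowest as for V1. Within the list Aanat spread most, with 7.58, 34.8, 3.77 and 0.943 FPKM in 5xFAD, against 5.81, 7.45, 1.21 and 2.08 FPKM in wild type. Asmt had 10.4 to 14.8 FPKM over the 8 libraries. The mean deviation and the correlations with it include Aanat and were not computed without it. Their FPKM summed to 2739 to 4325 in the 5xFAD libraries and 1983 to 3862 in the wild type libraries, and those of the 16 subunits to 1522 to 1896 and 1220 to 1983. Over the 8 libraries the correlation with the marker deviation was −0.46 for Atp6v0e, −0.22 for Atp6v0a2 and −0.09 for Atp6v1g2. It was 0.48 to 0.95 for the other tested genes of the pump. Outside the pump it ran from −0.78 for Ctsc to 0.90 for Ctsb, with 0.87 for Lamp1. In these bulk samples more or fewer cells of a type and more or less RNA per cell cannot be told apart. The part of the pinealocyte share in the V-ATPase values was not tested.

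**Figure D4:**
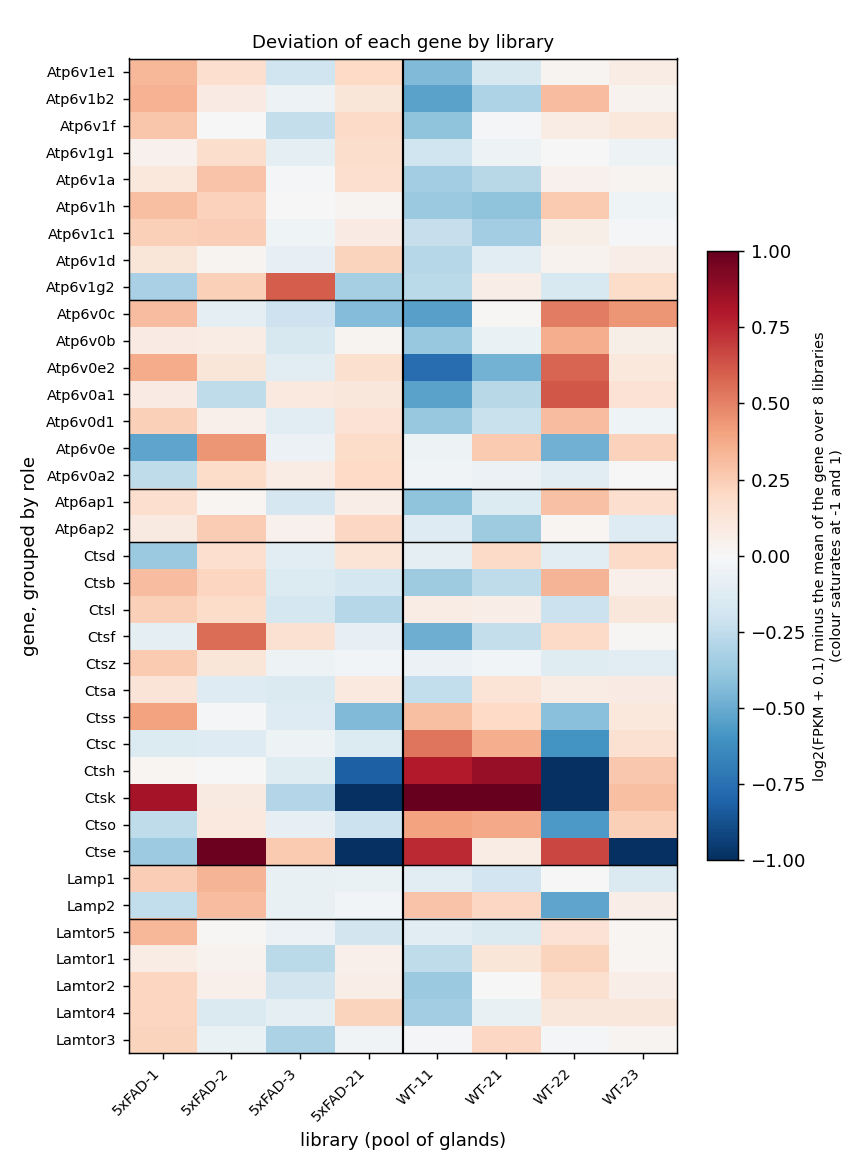
Deviation of each of the 37 genes from its own mean over 8 libraries, on log2(FPKM + 0.1), by role and with the 5xFAD libraries left of the line (red above, blue below the mean, colour saturating at −1 and 1). The V1 and V0 genes are blue in WT-11, and Ctsk and Ctsh are blue in 5xFAD-21 and WT-22 and red in WT-11 and WT-21.

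Among the 12 cathepsins that passed the filter, 9 stood below 0 on the log2 scale, the median being −0.09, with 0 at an unadjusted p under 0.05 in either direction. These compare with 4.6% of all genes higher and 3.35% lower. Without WT-22 the median was −0.12 and 3 of 12 were lower, against 8.47% of all genes. Ctsd had 303, 439.6, 361 and 429 FPKM in 5xFAD-1 to 5xFAD-3 and 5xFAD-21, against 365, 446, 363 and 447 FPKM in WT-11 and WT-21 to WT-23, a log2 fold change of −0.09 with a standard error of 0.16 (limma adjusted p = 0.885). A later annotation release than the one used for the FPKM holds a second protein-coding gene over Ctsd on the same strand. Whether the release used for the FPKM holds it, so that reads of Ctsd may have been divided, was not checked. Ctsb, a cysteine protease of broad specificity, had 210.3, 197, 155 and 150.3 FPKM in 5xFAD, against 133, 142, 214 and 176 FPKM in wild type (log2 fold change 0.11, adjusted p = 0.878). Ctsl, an endopeptidase, averaged 106 ± 18.8 FPKM in 5xFAD and 106 ± 10.5 FPKM in wild type (SD, n = 4 each), and Ctsa, the carboxypeptidase that protects β-galactosidase and neuraminidase, 56.3 ± 5.64 FPKM in 5xFAD and 57.3 ± 6.44 FPKM in wild type. None of these 4 differed beyond the spread of the libraries.

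Ctsf and Ctsz stood on the higher side. Ctsf, a cysteine cathepsin whose human gene is mutated in a form of neuronal ceroid lipofuscinosis, had 65.3, 103, 77.7 and 66.0 FPKM in 5xFAD, against 49.7, 59.2, 80.1 and 70.7 FPKM in wild type (log2 fold change 0.26, standard error 0.19, limma adjusted p = 0.736). The value of 5xFAD-2 alone lay above the wild type range. Ctsz, a carboxypeptidase, had 80.0, 72.6, 64.5 and 65.6 FPKM in 5xFAD, against 64.1, 65.6, 61.4 and 62.1 FPKM in wild type (log2 fold change 0.15, adjusted p = 0.703, exact permutation p = 0.0571). Its groups overlapped by a small margin, and the wild type SD was 1.93 FPKM against 7.17 FPKM in 5xFAD.

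The lower cathepsins spread widely between libraries. Ctsk, the collagen-degrading cathepsin of osteoclasts and some fibroblasts, had 27.8, 16.5, 12.7 and 4.48 FPKM in 5xFAD, against 38.8, 33.1, 5.23 and 19.2 FPKM in wild type, a log2 fold change of −0.57 with a standard error of 0.71 (limma adjusted p = 0.826). The highest library stood 8.65 times above the lowest. Ctsh, an aminopeptidase of macrophages and lung epithelium, had 23.2, 22.8, 20.9 and 12.9 FPKM in 5xFAD, against 39.7, 41.9, 11.3 and 27.6 FPKM in wild type (log2 fold change −0.46, standard error 0.40, adjusted p = 0.777). In both genes WT-11 and WT-21 were highest and 5xFAD-21 and WT-22 lowest. Ctsc, which activates the serine proteases of immune cells, had 26.1, 26.3, 27.7 and 26.2 FPKM in 5xFAD, against 41.7, 37.0, 18.9 and 31.9 FPKM in wild type (log2 fold change −0.23, adjusted p = 0.791). Ctso had 8.36, 10.7, 9.46 and 8.62 FPKM in 5xFAD, against 13.3, 13.1, 6.70 and 11.8 FPKM in wild type (log2 fold change −0.23, adjusted p = 0.791). In Ctsc and Ctso 3 wild type libraries lay above all 5xFAD libraries and WT-22 below them.

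Without WT-22 the log2 fold changes of Ctsh, Ctsc and Ctso were −0.88, −0.46 and −0.45 (limma adjusted p = 0.147, adjusted p = 0.119 and adjusted p = 0.141). That of Ctsk was −1.19 and the lowest of the cathepsins. In the libraries numbered in the twenties the log2 differences were −0.86 for Ctsh, −0.11 for Ctsc and −0.23 for Ctso, and in the others −0.83, −0.64 and −0.48. The sign was the same in both sets for these 3 genes, but each set has 1 library in a group, 5xFAD-21 or WT-11. Ctss, the cathepsin of antigen-presenting cells and microglia, had 49.1, 36.5, 34.0 and 27.2 FPKM in 5xFAD, against 45.6, 42.6, 27.7 and 39.9 FPKM in wild type (log2 fold change −0.09, adjusted p = 0.911). Ctse, an aspartic protease of immune and epithelial cells, had 0.568 to 3.00 FPKM in 5xFAD and 0.611 to 2.54 FPKM in wild type.

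Markers of macrophages moved with some of these cathepsins more than with others. Over the 8 libraries the correlation with their mean log2 deviation was 0.98 for Ctsk, 0.95 for Ctsh and 0.93 for Ctss. It was 0.78 for Ctsc, 0.75 for Ctso and 0.20 for Ctse. All 14 genes of the microglia and macrophage list were tested and none was listed at 0. On the log2 scale all 14 stood below 0 in 5xFAD, with a median of −0.46, and 1 was lower at an unadjusted p under 0.05 in limma, against 3.35% of all genes. Without WT-22 the median was −0.76 and 6 of 14 were lower, against 8.47% of all genes. Their FPKM summed to 269.8, 191, 176 and 118 in 5xFAD-1 to 5xFAD-3 and 5xFAD-21, against 320.0, 339, 133 and 231 in WT-11 and WT-21 to WT-23. C1qa, a complement gene of these cells and the most abundant of the list, had 25.4 to 50.3 FPKM in 5xFAD and 24.4 to 59.8 FPKM in wild type. As for Ctsh and Ctsk, WT-11 and WT-21 were highest and 5xFAD-21 and WT-22 lowest. Other lists had the same libraries at their low end. The 7 meningeal fibroblast markers summed to 819, 1229, 859.6 and 358 FPKM in 5xFAD, against 4017, 3279.7, 461 and 1964 FPKM in wild type, and the osteoclast markers were also lowest in WT-22 and 5xFAD-21. Bglap2, an osteocalcin gene, had 0.509 FPKM in 5xFAD-21 and 0.511 FPKM in WT-22, against 44.2 FPKM in WT-11. The part of macrophages, fibroblasts and bone cells in the cathepsin values was not tested, and the lists cannot be told apart by these orders.

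**Figure D5:**
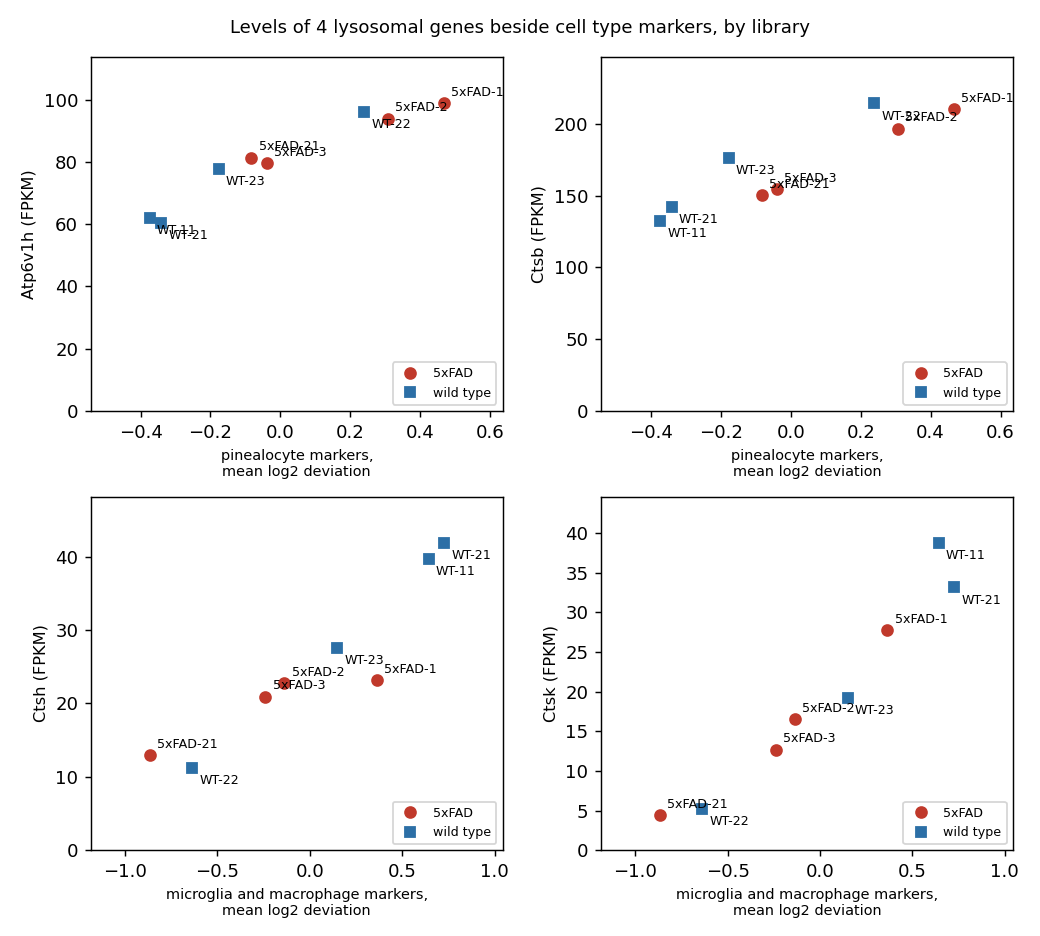
FPKM of Atp6v1h and Ctsb beside the mean log2 deviation of 10 pinealocyte markers, and of Ctsh and Ctsk beside that of 14 microglia and macrophage markers, with 1 labelled point per library (red circles 5xFAD, blue squares wild type). The 4 genes were chosen after their values were seen, and libraries of both groups lie along the same order, with WT-11 and WT-21 side by side and WT-22 near 5xFAD libraries.

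The cathepsins under the filter were those of blood cells and placenta. Ctsg, a serine protease of neutrophil granules, had 0.187 to 0.323 FPKM in 5xFAD and 0.091 to 2.21 FPKM in wild type. It was highest in WT-11, the library with the highest sum of neutrophil markers, a list that also holds Ctsg itself. That sum was 23.5 to 248 FPKM in 5xFAD and 20.2 to 446 FPKM in wild type. Ctsw, of cytotoxic T and NK cells, had 0.732, 0.513, 0.607 and 0.911 FPKM in 5xFAD, against 0.400, 0.644, 0.427 and 0.561 FPKM in wild type. Ctsj, Ctsm, Ctsq and Ctsr, which are known from the rodent placenta, were listed at 0 in all 8 libraries.

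Of the LAMP proteins, Lamp1 and Lamp2 were abundant. Lamp1, a heavily glycosylated protein of the lysosomal membrane, had 208, 222, 167 and 168 FPKM in 5xFAD, against 162, 153, 175 and 159 FPKM in wild type, a log2 fold change of 0.23 with a standard error of 0.13 (limma adjusted p = 0.663). WT-22 was the 1 wild type library above the lowest 5xFAD library. Lamp2, whose isoforms serve chaperone-mediated autophagy and vesicle fusion, had 98.6, 145, 111 and 115 FPKM in 5xFAD, against 142, 135, 81.2 and 123 FPKM in wild type, a log2 fold change of −0.02 (adjusted p = 0.984). The ratio of Lamp1 to Lamp2 was 2.11, 1.53, 1.5 and 1.47 in 5xFAD, against 1.14, 1.14, 2.15 and 1.29 in wild type, with WT-22 highest of all 8 and the other 3 wild type libraries lowest. Lamp3, a form of mature dendritic cells and lung, averaged 0.46 FPKM over all libraries. Lamp5, of cortical and other brain neurons, had 0.0305 to 0.181 FPKM in 5xFAD and 0 to 0.142 FPKM in wild type. Lamp1 overlaps Grtp1 on the other strand over 3317 bases of the later annotation release. It is 1 of 9 tested lysosomal genes that overlap a protein-coding gene on the other strand. Lamtor1 shares 13692 bases with Lrrc51. Whether strand was used in counting is not given in the sources used here.

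The 5 Ragulator genes had the narrowest spread between libraries, with a median coefficient of variation of 12.4% against 18.5% over all genes tested. Their log2 fold changes ran from −0.10 to 0.10, with 3 above 0 and 2 below. Lamtor5 had 95.6, 76.7, 72.7 and 66.8 FPKM in 5xFAD, against 70.2, 68.8, 83.7 and 76.8 FPKM in wild type (log2 fold change 0.05, limma adjusted p = 0.927). Lamtor1, the lipid-anchored protein that ties the complex to the membrane, had 55.8, 54.3, 43.8 and 54.8 FPKM in 5xFAD, against 44.4, 57.7, 61.9 and 53.7 FPKM in wild type (log2 fold change −0.06, adjusted p = 0.915). The groups overlapped in both. Lamtor2 and Lamtor3, which form a roadblock pair, averaged 45.7 ± 5.14 and 26.5 ± 4.06 FPKM in 5xFAD, against 43.6 ± 6.55 and 28.2 ± 2.17 FPKM in wild type (SD, n = 4 each). Lamtor4, the partner of Lamtor5, averaged 38.4 ± 5.20 FPKM in 5xFAD and 35.8 ± 5.17 FPKM in wild type. None of the 5 differed beyond 1 SD of its groups.

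Over 8 lists of other lysosomal genes, 1 gene was higher and 1 lower at an unadjusted p under 0.05 in limma, against 4.6% and 3.35% of all genes, and 0 passed the adjusted p. Both were among 18 membrane and transporter genes. Scarb2, the membrane receptor that brings β-glucocerebrosidase to the lysosome, averaged 43.6 ± 3.61 FPKM in 5xFAD and 37.1 ± 2.75 FPKM in wild type, a log2 fold change of 0.23 (adjusted p = 0.623). Hgsnat, the acetyltransferase of heparan sulfate breakdown, averaged 17.8 ± 1.72 FPKM in 5xFAD and 21.3 ± 1.12 FPKM in wild type, a log2 fold change of −0.26 (adjusted p = 0.60). They belong to a list of 18 lysosomal membrane and transporter genes, 9 above 0 and 9 below, with a median of 0.01. Of 32 lysosomal hydrolases 13 lay above 0 and 19 below, with a median of −0.05, and Glb1, the β-galactosidase, and Man2b1, an α-mannosidase, stood at −0.53 (adjusted p = 0.629) and −0.37 (adjusted p = 0.641). All 11 genes of V-ATPase assembly and regulation were tested, 8 above 0 and 3 below, with Wdr7 at 0.15 and Tbc1d24 at −0.23. Tcirg1, the osteoclast form of the a subunit, which the name rule does not reach, stood in this list at −0.44, with 6.67 to 10.9 FPKM in 5xFAD and 5.73 to 18.8 FPKM in wild type.

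The sorting and signalling lists had median log2 fold changes of −0.16 to 0.13. The 9 genes of mannose 6-phosphate sorting had a median of −0.04, with Gga3 at −0.37 and Sort1 at 0.22. Of the cathepsin inhibitors 3 of 5 were tested, with Serpinb6a at 0.22, Cstb, the cytosolic cystatin, at 0.13 and Cst3 at −0.09. Cst3 was the most abundant of them, with means of 957 FPKM in 5xFAD and 1026 FPKM in wild type. Of 6 genes of the TFEB family and folliculin 2 lay above 0 and 4 below, with a median of −0.16, and Mitf and Tfeb at −0.29 and −0.24. The 14 genes of the Rag GTPases and mTORC1 had 7 above 0 and 7 below, with Rragc at 0.25 (adjusted p = 0.629) and Rheb at 0.21 (adjusted p = 0.641). All 8 genes of BORC, which places lysosomes along microtubules, lay above 0, against 48.7% over all genes, with a median of 0.07 and with Borcs6 and Borcs7 at 0.23 and 0.24. Without WT-11, 4 of the 8 BORC genes lay above 0 and 4 below. Without WT-22, at an unadjusted p under 0.05 in limma, 2 of 18 membrane and transporter genes were higher and 4 lower, 1 of 32 hydrolases was higher and 3 lower, 2 of 11 assembly genes were higher and 1 lower, and 1 of 14 genes of the Rag list was higher and 1 lower, against 9.61% of all genes higher and 8.47% lower. In the other lists there were 0, and 0 genes of any list passed the adjusted p.

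Genes with the promoter letters shown above lay on both sides of 0. The 5 genes with TCACGTGA had log2 fold changes of 0.28 for Atp6v1a, 0.17 for Atp6v0d1, 0.02 for Atp6v0e, −0.02 for Ctsa and −0.09 for Ctsd. Lamp1, with 4 copies of CACGTG, stood at 0.23, Lamtor4 at 0.10 and Atp6v0b at 0.01.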

How the data were processed

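Per the labels, total pineal RNA was depleted of ribosomal RNA and sequenced as stranded libraries. The authors made the FPKM table with Trimmomatic for trimming, STAR for alignment to GRCm38 and Cuffnorm on GENCODE M17. Gene positions, gene overlaps and the lengths used for depth were read here from a later GENCODE release. Tool versions, the Cuffnorm normalization and the use of strand are not given in the sources used here. The deposited mean column was not used, except for 1 pseudogene. Genes averaging at least 1 FPKM were tested with limma 3.58.1 in R 4.3.3 (trended eBayes) on log2(FPKM + 0.1), with Benjamini-Hochberg adjustment over all 13094 protein-coding genes. The fold change of a low gene is understated on this scale. The fit was tested on simulated data. Depth was read from the step of 1 fragment among low values, of which 95.0 to 97.9% lay within 0.2 of a whole step. Intervals were not computed.

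Members and lists were chosen with earlier results of these data known. Named were, per role, the 4 most abundant genes, all with an unadjusted p under 0.05, the 3 largest differences, paralogs and genes under the filter, and per list up to 2 genes by p. Xist, Ddx3y, Tcirg1, Cst3, the choroid plexus genes other than Ttr and the remaining members were named after their values were seen. Promoter windows came from RefSeq on GRCm38.p6, and 40 members had one. Protein identity of paralogs was not computed. Alternatives were other pseudocounts, filters, scalings, a replicate block, a number term, no trend, array weights and leaving out libraries. Python 3.11.15 was used.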

Additional observations from a re-analysis of the deposited data

Results flagged for a closer look

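Within groups of 4, the lowest or highest library was set against the others by its gap over the range of the group. Of 86 groups looked at 5 passed, where chance gives about 1 in 20. Lamtor1 had 43.8 FPKM in 5xFAD-3, where the other 5xFAD libraries had 54.3 to 55.8 FPKM. Atp6v0a1 had 84.9 FPKM in 5xFAD-2, where the others had 107 to 109 FPKM. Ctsl had 90.5 FPKM in WT-22, and WT-11, WT-21 and WT-23 had 110 to 114 FPKM. Ctsc had 27.7 FPKM in 5xFAD-3, where the others had 26.1 to 26.3 FPKM. The mean log2 deviation of both accessory genes was −0.0606 in 5xFAD-3 and 0.127 to 0.137 in the rest of its group.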

How the results depend on the processing

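The count of lysosomal genes past an adjusted p of 0.05 was 0 in all 22 alternatives, 20 planned and 2 added after seeing the data. The count higher in 5xFAD at an unadjusted p under 0.05 in limma, 1 as reported, was 0 with quantile normalization, 3 with median-ratio scaling, 4 with equal protein-coding totals, 2 with a term for the sample number, 3 without WT-22 and 5xFAD-21, and 0 to 6 with 1 library left out. The count lower, 0 as reported, was 3 without WT-22 and 5xFAD-21, 3 without WT-11 and WT-22, and 0 to 3 with 1 library left out (3 without WT-22). With the replicate block the count higher was 0. Over all genes tested, the deviations of libraries with the same replicate number correlated at −0.04, 0.21, −0.34 and 0.24. Replicate numbers are not the label numbers, and 5xFAD-21 and WT-21 were not compared in this way. These values cannot show whether libraries were paired. Over all genes equal totals gave 887 higher and 217 lower, against 602 and 439 as reported, and 92 genes passed the adjusted p without WT-22, 29 and 21 in the added alternatives, 0 over genes above 0 in every library, 9 with array weights and 8 without a filter, against 5. The median log2 fold change ranged from 0.01 to 0.14 over the tested lysosomal genes, −0.05 to 0.15 for V0 and −0.22 to −0.01 for cathepsins. Of the 37 genes 20 kept 1 sign and 17 did not. The filters, the replicate block and the fit without trend could not change the sign of a gene. Genes under 1 FPKM rest on few fragments.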
